A study of Mus musculus with 8 samples.

Results

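The genes described here are the splicing factors and spliceosomal proteins of activated mouse B cells. They are the protein-coding genes whose symbols begin with Snrp, with Lsm, Srsf, Prpf or Rbm and a number, with Hnrnp, with Sf3a or Sf3b and a number, or with U2af. The rule found 114 of the 15681 genes in the table and used no measured value. By name they form 8 families, which are the Sm ring (7 genes), other snRNP-specific proteins (4), Lsm (13), SR proteins (11), hnRNP (20), SF3 and U2AF (12), Prpf (13) and Rbm (34). A further 6 genes of the annotation meet the rule and were not analysed here. Of the 114 genes, 111 reached 1 RPM (reads per 1 M of the effective library size, where M is mega) in at least 2 libraries and were tested. The other 3, Rbm11, Rbm8a2 and Srsf12, stayed below 1 RPM in all 8 libraries.

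Splenic mature B cells, sorted from animals aged 8 to 10 weeks, were sequenced after 72 h in culture with lipopolysaccharide (20 µg/ml) and interleukin 4 (20 ng/ml), a pair of stimuli that activates B cells. The 4 groups, of 2 libraries each, were cells deficient in Myc (Myc_KO), in Max (Max_KO) or in both (double_KO), and heterozygous controls (control). All groups received the same culture and stimuli. The labels name neither the heterozygous allele nor the way in which the genes were deleted, and do not tell whether replicate libraries stem from different animals. The p-values thus reflect the spread between the libraries at hand, which may be technical. Libraries held 14.88 to 17.91 M estimated reads. Levels are given in RPM, and changes as log2 differences with the standard error (SE) from limma, adjusted over all 12489 genes tested.

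The transcription factor Myc binds DNA together with its partner Max, often at the sequence called the E-box. Introns are removed from transcripts by the spliceosome, which is built from small nuclear ribonucleoproteins (snRNPs) named after their U RNAs. In the U1, U2, U4 and U5 particles the RNA carries a ring of Sm proteins, while the U6 RNA carries a related ring of Lsm proteins. SR and hnRNP proteins bind the transcript and influence which splice sites are used. Myc is known in mouse lymphoma to raise genes of Sm ring assembly and several splicing regulators.

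The targeted genes went against the labels of 2 libraries. Myc was at 38.8 and 48.35 RPM in the libraries labelled Myc_KO, 192 and 176 RPM in Max_KO, 55.4 and 55.8 RPM in those labelled double_KO, and 111.5 and 116.5 RPM in the controls. Max was at 28.6 and 70.5 RPM in the libraries labelled Myc_KO, 16.4 and 15.5 RPM in Max_KO, 31.2 and 59.8 RPM in those labelled double_KO, and 55.0 and 54.5 RPM in the controls. Max was thus low in the library labelled Myc_KO replicate 1 and near the control level in the library labelled double_KO replicate 2, and the titles of these 2 libraries give the other genotype. Myc_KO and double_KO therefore stand below for the libraries labelled so in the descriptions. The 4 libraries of these groups are also set together against the controls as the Myc-deficient libraries. Their mean does not depend on which of the labels holds. The spread is taken within the labelled groups, so the SE and the calls do depend on the labels.

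Other properties of the libraries differed with the groups. Summed over 8 B cell markers, levels were 13600 to 16300 RPM in the 6 knock-out libraries and 12500 to 12800 RPM in the controls. Over 6 plasma cell markers they were 574 to 1100 RPM in the knock-out libraries and 1210 to 1260 RPM in the controls. T cell markers (9 genes) summed to 77.5 to 157 RPM in the knock-out libraries and 37.8 to 43.6 RPM in the controls. NK cell markers (4 of 5 analysed) summed to 3.5 to 17.9 RPM in the knock-out libraries and 0.871 to 0.97 RPM in the controls, and myeloid markers (4 of 8 analysed) to 8.9 to 30 RPM in the knock-out libraries and 2.57 to 3.51 RPM in the controls. No marker in the table was without reads in all libraries, and none of the 4 erythroid markers was analysed here. Mitochondrially encoded genes took 2.21 to 2.96% of reads in the knock-out libraries and 4.93 to 5.69% in the controls. The part of these differences in the results below was not tested, and in these bulk libraries fewer cells of a type and less RNA per cell cannot be told apart.

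As a whole the splicing genes did not move one way. In the libraries labelled Myc_KO 21 of the 111 were lower and 21 higher than in the controls at an adjusted p under 0.05, or 37.8%, where 41.0% of all genes tested were called (18.7% lower and 22.3% higher). In Max_KO 12 were lower and 20 higher, or 28.8%, against 38.1% of all genes (16.6% lower and 21.4% higher). In the libraries labelled double_KO 22 were lower and 22 higher, or 39.6%, against 42.3% of all genes (18.9% lower and 23.3% higher). For the 4 Myc-deficient libraries together 25 were lower and 24 higher, or 44.1%, against 48.2% of all genes (22.3% lower and 25.9% higher). These shares were near or below those of all genes. Together the members took 2.21 to 2.38% of the reads of a knock-out library and 2.01 to 2.07% of those of a control.

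The split by direction depended on the scaling. With every library scaled to the same total, the members called lower and higher numbered 10 and 28 in Myc_KO, 9 and 32 in Max_KO, and 13 and 33 in double_KO. All genes shifted upward as well under that scaling, with 14.1, 13.1 and 13.9% called lower and 28.9, 27.2 and 30.4% higher. It moved the median change of all genes to 0.14, 0.12 and 0.16, where it was 0.01, 0.02 and 0.02 with the deposited scaling. With quantile normalization 29 members were lower and 19 higher in Myc_KO, 25 and 19 in Max_KO, and 30 and 26 in double_KO, where 20.1, 18.3 and 21.6% of all genes were lower and 21.5, 20.1 and 22.4% higher. With the deposited scaling, used below, a change is relative to most other genes of the same library, not to the cell. Leaving out control replicate 1 left 6 lower and 10 higher in Myc_KO, 6 lower and 12 higher in Max_KO, and 10 lower and 13 higher in double_KO. The share of all genes called fell too without that library, to 21.3, 18.1 and 22.1%. Of the 118 calls of members over the 3 comparisons, 70 were lost in at least 1 of the 8 fits that left out 1 library and 28 in at least 4 of them. Of the genes named below the 28 include Lsm2, Lsm3, Lsm7, Lsm11, Rbm33 and Rbm43 in Myc_KO, Lsm14a in Max_KO, and Sf3b2, Srsf5, Hnrnpll and Hnrnpul2 in double_KO.

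**Figure D1:**
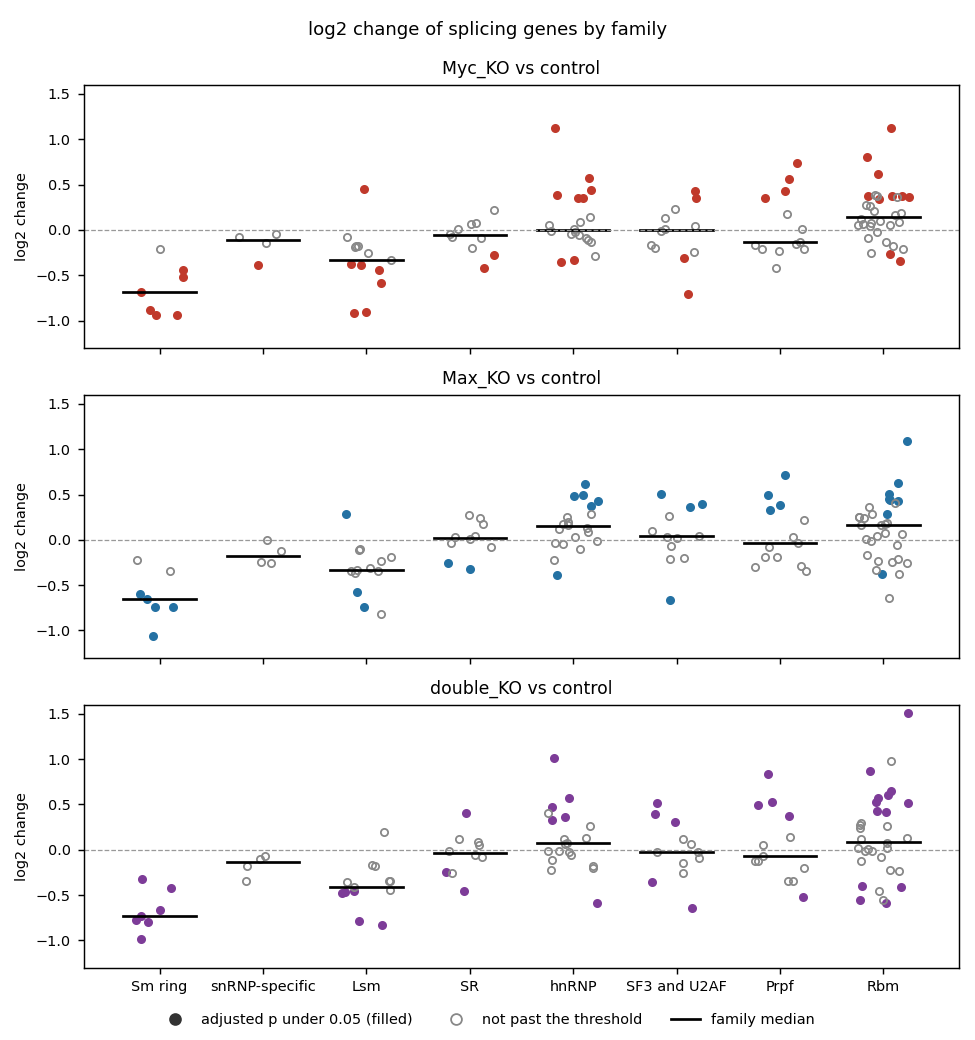
Change of each tested splicing gene (log2, vertical axis) by family (horizontal axis) in Myc_KO, Max_KO and double_KO relative to the controls. Each point is a gene, filled where its adjusted p was under 0.05, and bars are family medians; the Sm ring lies lowest, with medians of -0.69, -0.65 and -0.73.

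The Sm ring was the family with the lowest median in each comparison with the controls. Of its 7 genes 6 were called lower in Myc_KO, 5 in Max_KO, 7 in double_KO and none higher in any. Over all genes tested 18.7, 16.6 and 18.9% were called lower. Without control replicate 1, 4 were called lower in each comparison. Their median changes were -0.69, -0.65 and -0.73, beside medians between 0.01 and 0.02 over all genes. Under same-total scaling the medians were -0.56, -0.55 and -0.59, and under quantile normalization -0.75, -0.74 and -0.78. Without the 2 libraries in dispute 6, 5 and 5 of the 7 were called lower.

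Within the ring, Snrpf, one of its small subunits, changed the most in Max_KO and in double_KO. It was at 62.7 and 65.6 RPM in Myc_KO, 59.3 and 58.7 RPM in Max_KO, 64.5 and 59.2 RPM in double_KO, and 127 and 118 RPM in the controls. All 6 knock-out libraries lay below both controls and close to each other. The log2 changes were -0.94, -1.06 and -0.99 (SE 0.0916 each; adjusted p = 0.000383, 0.00038 and 0.000361), so that the level was 1.91-, 2.08- and 1.99-fold lower. Snrpf lies at chr10:93583029-93589706 on GRCm38.

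Snrpe, another small subunit, stood at 76.2 and 63.4 RPM in Myc_KO, 84.9 and 84.0 RPM in Max_KO, 78.4 and 69.1 RPM in double_KO, and 132 and 124 RPM in the controls. Its changes were -0.88, -0.60 and -0.80 (SE 0.114; adjusted p = 0.000889, 0.00493 and 0.00132). Snrpg, also of the ring, was at 63.7 and 44.5 RPM in Myc_KO, 62.2 and 60.4 RPM in Max_KO, 61.7 and 58.0 RPM in double_KO, and 110 and 95.8 RPM in the controls. The knock-out libraries of both genes lay below both controls, and the Myc_KO libraries of Snrpg were farther apart than those of the other groups. The changes of Snrpg were -0.94, -0.74 and -0.78 (SE 0.161; adjusted p = 0.00279, 0.00876 and 0.00644).

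Snrpd1 and Snrpd2, which encode subunits that pair during assembly, were also lower throughout. Snrpd2 was at 96.2 and 88.6 RPM in Myc_KO, 93.0 and 85.2 RPM in Max_KO, 97.7 and 82.4 RPM in double_KO, and 154 and 143 RPM in the controls. Snrpd1 was at 72.4 and 72.9 RPM in Myc_KO, 68.4 and 64.4 RPM in Max_KO, 71.9 and 60.9 RPM in double_KO, and 111 and 98.1 RPM in the controls. Neither gene had a knock-out library within the range of the controls. Snrpd2 changed by -0.69, -0.74 and -0.73 (SE 0.11; adjusted p = 0.00208, 0.00189 and 0.00173), and Snrpd1 by -0.52, -0.65 and -0.66 (SE 0.111; adjusted p = 0.00727, 0.00311 and 0.00268).

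The partners Snrpb and Snrpd3 changed least. Snrpb was at 223 and 213 RPM in Myc_KO, 224 and 210 RPM in Max_KO, 215 and 189 RPM in double_KO, and 269 and 236 RPM in the controls. Its changes were -0.21, -0.22 and -0.32 (SE 0.103), and only that of double_KO was called (adjusted p = 0.138, 0.129 and 0.0358). That call was lost without either control library and without double_KO replicate 2. Snrpd3 was at 82.6 and 67.3 RPM in Myc_KO, 82.5 and 78.1 RPM in Max_KO, 82.5 and 70.2 RPM in double_KO, and 112 and 91.5 RPM in the controls. Its controls lay apart, and its changes of -0.44, -0.34 and -0.42 (SE 0.144) were called in Myc_KO and double_KO but not in Max_KO (adjusted p = 0.0383, 0.0976 and 0.0475). The calls for Snrpd3 were each lost in 4 of the 8 fits that left out 1 library. The promoter of Snrpd3 is shown because, of the 5 Sm ring genes with a RefSeq promoter, it is the one in which the motif search found a match; the capitals mark CACGCG read on the other strand (RefSeq, GRCm38.p6, chr10:75517792-75518091, plus strand, 250 bases before to 50 after the start).
Snrpd3: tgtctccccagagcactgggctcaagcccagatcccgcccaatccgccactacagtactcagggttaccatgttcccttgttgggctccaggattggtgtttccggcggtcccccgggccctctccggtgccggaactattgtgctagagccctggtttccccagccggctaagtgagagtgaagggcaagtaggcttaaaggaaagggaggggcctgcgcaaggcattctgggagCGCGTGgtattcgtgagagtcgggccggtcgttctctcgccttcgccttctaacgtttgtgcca

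**Figure D2:**
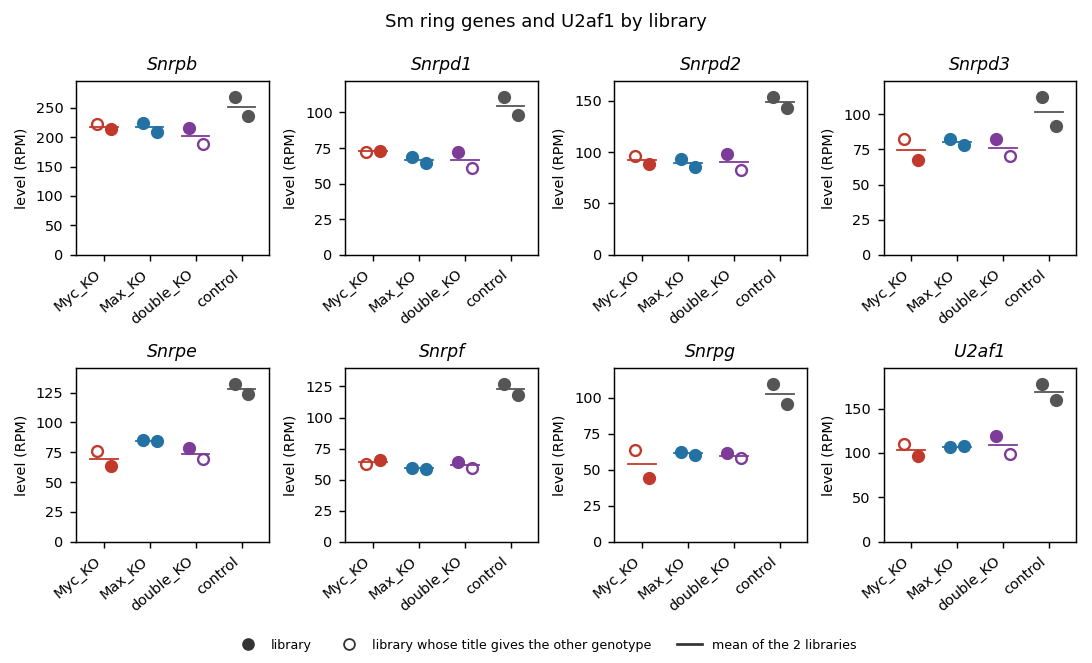
Level (RPM, linear axes from 0) of the 7 Sm ring genes and U2af1 in each library, by group. Points are libraries, open points are the 2 whose titles give the other genotype, and bars are group means; in each panel the 6 knock-out libraries lie below both controls.

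Transcript length moved with these changes across the genome. When all genes were divided into 5 equal bins by transcript length, the median change in Myc_KO was -0.31 in the shortest bin (up to 1526 nt) and 0.39 in the longest (4598 nt or more). In Max_KO the medians of those bins were -0.30 and 0.37, and in double_KO -0.29 and 0.42. The Spearman correlation of length with the change was 0.34, 0.34 and 0.33 over 12460 genes and 0.55, 0.46 and 0.46 over the 111 members, given as descriptions, since the points share libraries. Each knock-out library by itself gave 0.32 to 0.34 against the mean of the controls, while control replicate 1 minus control replicate 2 gave -0.16. Among members in the shortest bin 14, 8 and 13 of 22 were called lower in Myc_KO, Max_KO and double_KO and none higher, where 32.6, 30.2 and 33.4% of all genes of that bin were called lower. In the longest bin 9 of 16 members were called higher in each comparison, where 47.3, 44.9 and 50.1% of all genes were.

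The Sm ring transcripts measure 503 to 3036 nt, with a median of 1055 nt. Over all genes of that length range the median changes were -0.16, -0.13 and -0.14, and 25, 21.9 and 25.4% were called lower. Snrpd3 alone sets the upper end of the range. The other ring transcripts are at most 1420 nt and fall in the shortest bin. Over all genes of that bin the medians were -0.31, -0.30 and -0.29, and 32.6, 30.2 and 33.4% were called lower. With a smooth trend on length taken out of each library, an alternative added later, the ring had medians of -0.45, -0.35 and -0.51, and 5, 3 and 6 of its 7 genes were called lower. Snrpf then changed by -0.58, -0.73 and -0.69, and each of these was called. Snrpe (-0.19) and Snrpg (-0.45) were not called in Max_KO, nor was Snrpd1 in Myc_KO (-0.16). Snrpb changed by 0.11, 0.06 and -0.07, and none was called.

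**Figure D3:**
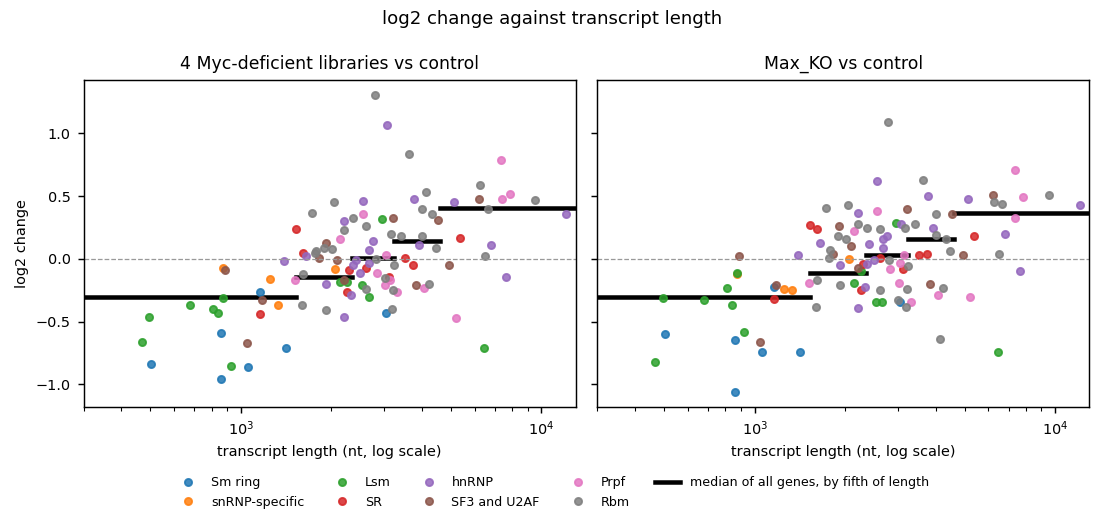
Change (log2, vertical axis) against transcript length (nt, log axis) for each tested splicing gene, coloured by family, in the 4 Myc-deficient libraries (left) and in Max_KO (right) relative to the controls. Black bars are the medians of all genes in each of 5 bins of length, which run upward with length in both panels; the Sm ring points lie low at the short end.

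Among 4 proteins particular to U1 or U2, 1 was called lower in Myc_KO, against 18.7% of all genes, and none in Max_KO or double_KO. That gene is Snrpa, which encodes the U1 protein U1-A. It was at 114 and 93.5 RPM in Myc_KO, 109 and 118 RPM in Max_KO, 117 and 98 RPM in double_KO, and 143 and 129 RPM in the controls. Its changes were -0.39, -0.25 and -0.34 (SE 0.13; adjusted p = 0.0413, 0.156 and 0.0678), and the call in Myc_KO was lost in 5 of the 8 fits without 1 library. Snrpc (U1), Snrpa1 and Snrpb2 (both U2) were not called in any of the comparisons with the controls. The promoter of Snrpa is shown for its pair of CACGTG matches, in capitals (RefSeq, GRCm38.p6, chr7:27196222-27196521, minus strand); RefSeq gives this gene another start as well.
Snrpa: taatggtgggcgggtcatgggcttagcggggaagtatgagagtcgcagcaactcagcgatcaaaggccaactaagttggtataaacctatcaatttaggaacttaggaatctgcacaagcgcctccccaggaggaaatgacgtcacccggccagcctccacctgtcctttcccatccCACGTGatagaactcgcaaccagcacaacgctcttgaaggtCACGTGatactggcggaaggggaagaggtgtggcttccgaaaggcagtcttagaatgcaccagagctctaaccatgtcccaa

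The Lsm genes had the next lowest medians. Of 13 genes 6, 2 and 5 were called lower in Myc_KO, Max_KO and double_KO and 1, 1 and 0 higher, with medians of -0.33, -0.33 and -0.41. Those called lower were 46.2, 15.4 and 38.5% of the family, where 18.7, 16.6 and 18.9% of all genes tested were. With the length trend removed 2, 1 and 2 were called lower and the medians were -0.03, -0.03 and -0.15. Without control replicate 2 none was called lower in Max_KO, and without control replicate 1, 1 was called lower in Myc_KO, 1 in Max_KO and 2 in double_KO. The U6 ring is made of Lsm2 to Lsm8, and Lsm1 replaces Lsm8 in the cytoplasmic ring that promotes decapping of mRNA.

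Lsm4, of both rings, was at 104 and 86.0 RPM in Myc_KO, 129 and 112 RPM in Max_KO, 119 and 89.2 RPM in double_KO, and 188 and 170 RPM in the controls. The libraries differed within each knock-out group, and all lay below both controls. Its changes were -0.92, -0.58 and -0.79 (SE 0.157; adjusted p = 0.00281, 0.0215 and 0.00516). With the length trend removed they were -0.57, -0.26 and -0.51, called in Myc_KO and double_KO but not in Max_KO. Lsm2, Lsm3 and Lsm5 changed by -0.39, -0.38 and -0.44 in Myc_KO (adjusted p = 0.0461, 0.0497 and 0.0368). With the length trend removed these were -0.03, -0.03 and -0.15, and none was called. Lsm7 was at 22.1 and 17.7 RPM in Myc_KO, 28.8 and 15.5 RPM in Max_KO, 29.2 and 26.9 RPM in double_KO, and 45.5 and 30.6 RPM in the controls. Its libraries were the most spread of the family, and it was called in Myc_KO alone, with a change of -0.91 (SE 0.295; adjusted p = 0.0381). Lsm1, Lsm6, Lsm10, Lsm12 and Lsm14b were not called in any of these comparisons.

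Lsm11, a subunit of the U7 snRNP that processes histone mRNA ends and not of the spliceosome, has a long transcript (6453 nt) and was lower in each group. It was at 13.8 RPM in both Myc_KO libraries, 13.9 and 11.2 RPM in Max_KO, 11.9 and 11.5 RPM in double_KO, and 19.6 and 22.0 RPM in the controls. Its changes were -0.59, -0.74 and -0.83 (SE 0.158; adjusted p = 0.0186, 0.00817 and 0.00445), and with the length trend removed they were -0.92, -1.05 and -1.23. Lsm14a, a cytoplasmic protein of mRNA granules, went the other way. It was at 202 and 218 RPM in Myc_KO, 194 and 182 RPM in Max_KO, 174 and 180 RPM in double_KO, and 160 and 148 RPM in the controls. The changes were 0.45, 0.29 and 0.20 (SE 0.0874; adjusted p = 0.00504, 0.0333 and 0.0971), called in Myc_KO and Max_KO.

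Splice site recognition at the 3′ end of the intron rests on U2AF and on SF3, the protein core of the U2 snRNP. Of 12 genes 2, 1 and 2 were called lower and 2, 3 and 3 higher, with medians of 0.00, 0.04 and -0.02. Those lower were 16.7, 8.33 and 16.7% of the family, against 18.7, 16.6 and 18.9% of all genes tested. Those higher were 16.7, 25 and 25%, against 22.3, 21.4 and 23.3%. U2af1, the small U2AF subunit that reads the AG of the splice site, was lower in all 6 knock-out libraries. It was at 111 and 96.5 RPM in Myc_KO, 106 and 107 RPM in Max_KO, 119 and 98.2 RPM in double_KO, and 178 and 159 RPM in the controls. Its changes were -0.71, -0.66 and -0.64 (SE 0.119; adjusted p = 0.00264, 0.00408 and 0.00405). U2af2, the large subunit, was not called, with 379 and 313 RPM in Myc_KO, 389 and 348 RPM in Max_KO, 342 and 332 RPM in double_KO, and 357 and 329 RPM in the controls. With the length trend removed U2af1 changed by -0.37, -0.37 and -0.38, each still called. Its promoter is shown because U2af1 changed the most in the family; the capitals mark CACGCG (RefSeq, GRCm38.p6, chr17:31658715-31659014, minus strand).
U2af1: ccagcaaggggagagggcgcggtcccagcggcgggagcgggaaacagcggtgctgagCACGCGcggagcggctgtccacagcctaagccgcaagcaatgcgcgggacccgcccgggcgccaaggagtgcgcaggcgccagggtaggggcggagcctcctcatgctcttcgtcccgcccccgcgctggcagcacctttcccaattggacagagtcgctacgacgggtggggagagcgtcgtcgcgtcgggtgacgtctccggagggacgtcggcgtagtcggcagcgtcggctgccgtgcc

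Sf3b1, the largest SF3b subunit, which holds the branch point region, was higher. It was at 635 and 613 RPM in Myc_KO, 621 and 704 RPM in Max_KO, 664 and 668 RPM in double_KO, and 457 and 470 RPM in the controls. All knock-out libraries lay above both controls. Its changes were 0.43, 0.51 and 0.52 (SE 0.0927; adjusted p = 0.00776, 0.00401 and 0.0033). Its partner Sf3b2 was at 421 and 378 RPM in Myc_KO, 415 and 412 RPM in Max_KO, 393 and 382 RPM in double_KO, and 322 and 304 RPM in the controls, with changes of 0.35, 0.40 and 0.31 (adjusted p = 0.0141, 0.00864 and 0.0227). Sf3b3 was called higher in Max_KO and double_KO, at 0.36 and 0.39 (adjusted p = 0.03 and 0.0216). Sf3b6, a short subunit at the branch point, was called lower in Myc_KO and double_KO, at -0.31 and -0.36 (adjusted p = 0.0472 and 0.0285), and its call in Myc_KO was lost in every fit that left out 1 library. With the length trend removed Sf3b1 changed by 0.11, 0.21 and 0.15, and none of these was called.

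The Prpf genes, homologues of yeast pre-mRNA processing factors, held 4 of 13 genes called higher in each of the 3 comparisons and 0, 0 and 1 called lower, with medians of -0.13, -0.03 and -0.07. Those higher were 30.8% of the family, against 22.3, 21.4 and 23.3% of all genes tested. Over all genes 18.7, 16.6 and 18.9% were called lower. The median of the family turned to 0.00, 0.08 and 0.07 under same-total scaling. Prpf8, the U5 protein at the catalytic centre, was at 747 and 730 RPM in Myc_KO, 685 and 758 RPM in Max_KO, 792 and 787 RPM in double_KO, and 440 and 444 RPM in the controls. The controls were close to each other, and all knock-out libraries lay above them. Prpf8 changed by 0.74, 0.71 and 0.84 (SE 0.0886; adjusted p = 0.000652, 0.000962 and 0.000479), or 1.67-, 1.63- and 1.79-fold higher. With the length trend removed the changes were 0.35, 0.34 and 0.37, all called.

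Prpf4b, a kinase of the tri-snRNP, was at 124 and 133 RPM in Myc_KO, 126 and 117 RPM in Max_KO, 117 and 127 RPM in double_KO, and 87.9 and 85.6 RPM in the controls. Its changes were 0.56, 0.49 and 0.49 (SE 0.0899; adjusted p = 0.00205, 0.00438 and 0.00397). With the length trend removed they were 0.14, 0.10 and -0.02 and none was called. Prpf18, of the second catalytic step, changed by 0.35, 0.38 and 0.37 (adjusted p = 0.0142, 0.0109 and 0.0106). Prpf4, of the tri-snRNP, was the member called lower, in double_KO, at -0.52 (adjusted p = 0.0224). Among the members not called in any comparison were Prpf3, Prpf6, Prpf19 and Prpf31.

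**Figure D4:**
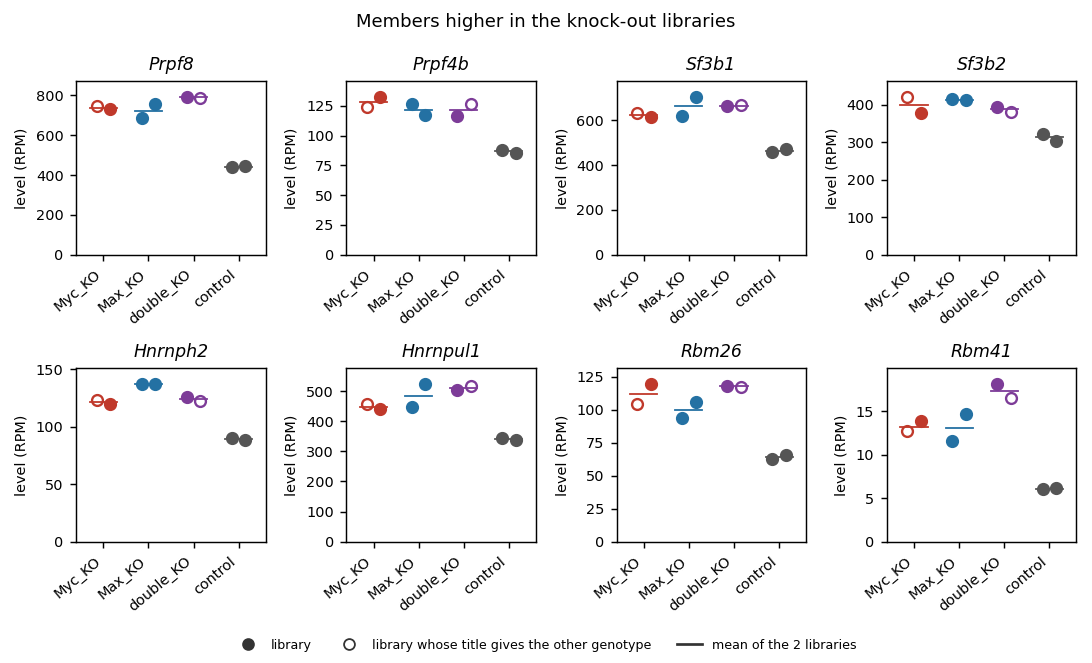
Level (RPM, linear axes from 0) of 8 members that were higher in the knock-out libraries, by group. Points are libraries, open points are the 2 whose titles give the other genotype, and bars are group means; each control lies below all 6 knock-out libraries.

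Of 10 tested SR protein genes 2 were called lower in each comparison, and 0, 0 and 1 were called higher, with medians of -0.06, 0.02 and -0.04. The genes called lower were 20% of the family, near the 18.7, 16.6 and 18.9% of all genes tested. Over all genes 22.3, 21.4 and 23.3% were called higher. Srsf9 was at 95.9 and 94.2 RPM in Myc_KO, 109 and 95.1 RPM in Max_KO, 96.1 and 89.1 RPM in double_KO, and 126 and 129 RPM in the controls, and changed by -0.42, -0.32 and -0.46 (SE 0.0954; adjusted p = 0.00956, 0.0299 and 0.00646). Srsf4 was at 147 and 153 RPM in Myc_KO, 153 RPM in both Max_KO libraries, 152 and 154 RPM in double_KO, and 188 and 176 RPM in the controls. Its 6 knock-out libraries were close to each other, and its changes were -0.28, -0.25 and -0.25 (SE 0.0795; adjusted p = 0.0248, 0.0377 and 0.0352). These calls were lost in 4, 6 and 4 of the 8 fits that left out 1 library. Srsf5 was called higher in double_KO, at 0.41 (adjusted p = 0.0298). Srsf1, the founding SR protein and a known Myc target in other cells, was at 424 and 452 RPM in Myc_KO, 430 and 423 RPM in Max_KO, 420 and 394 RPM in double_KO, and 377 and 374 RPM in the controls. All 6 knock-out libraries lay above both controls, with changes of 0.22, 0.18 and 0.12 (SE 0.0832) that were not called (adjusted p = 0.0636, 0.114 and 0.288). Its values were -0.02, -0.05 and -0.17 with the length trend removed, not called either, and no SR gene was then called lower.

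The hnRNP family was mixed. Of 20 genes 2, 1 and 1 were called lower and 6, 5 and 5 higher, with medians of 0.00, 0.15 and 0.07. Those lower were 10, 5 and 5% of the family, against 18.7, 16.6 and 18.9% of all genes tested. Those higher were 30, 25 and 25%, against 22.3, 21.4 and 23.3%. Per kilobase of transcript, Hnrnpa3, Hnrnpa2b1 and Hnrnpa1 had the highest levels of all 114 genes in the controls, at 773, 761 and 520 RPM per kb. None of the 3, which bind RNA as the core hnRNP A and B proteins, was called. Hnrnpa1, a regulator that represses exons, was at 899 and 737 RPM in Myc_KO, 886 and 1040 RPM in Max_KO, 1010 and 843 RPM in double_KO, and 1028 and 966.5 RPM in the controls, and its changes were -0.29, -0.05 and -0.11 (SE 0.142; adjusted p = 0.131, 0.787 and 0.552). Hnrnpa2b1 changed by 0.05, 0.13 and -0.01 (SE 0.111).

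Hnrnph2 was among the members most firmly higher. It was at 123 and 120 RPM in Myc_KO, 137 RPM in both Max_KO libraries, 126 and 122 RPM in double_KO, and 90.0 and 88.4 RPM in the controls. Its changes were 0.44, 0.62 and 0.47 (SE 0.0777; adjusted p = 0.00316, 0.000962 and 0.00241), and 0.51, 0.66 and 0.52 with the length trend removed. Its close paralogue Hnrnph1, which like it binds G-rich RNA, changed by -0.35 in Myc_KO (SE 0.0809; adjusted p = 0.00967) and by -0.22 in each of the other groups, where it was not called. Reads shared by such near copies were divided by the authors' estimation, so that both values are uncertain. The same holds for the pairs Rbm4 and Rbm4b, Rbm12b1 and Rbm12b2, and Rbm8a and Rbm8a2. Hnrnph3 was lower, at -0.33, -0.39 and -0.59 (SE 0.113; adjusted p = 0.0455, 0.0285 and 0.00463). Its call in Myc_KO was lost in all 8 fits without 1 library, and with the length trend removed it was called in double_KO but not in Myc_KO or Max_KO. The promoter of Hnrnph2 is shown as that of a higher member with a CACGTG match, in capitals (RefSeq, GRCm38.p6, chrX:134600929-134601228, plus strand).
Hnrnph2: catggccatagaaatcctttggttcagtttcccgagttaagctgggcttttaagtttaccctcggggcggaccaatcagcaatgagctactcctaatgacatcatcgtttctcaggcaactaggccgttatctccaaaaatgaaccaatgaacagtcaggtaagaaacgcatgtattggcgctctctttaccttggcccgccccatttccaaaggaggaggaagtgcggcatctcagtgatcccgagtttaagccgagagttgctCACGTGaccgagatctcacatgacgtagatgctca

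Hnrnpll, a regulator of Cd45 splicing that is known to rise as B cells become plasma cells, was called higher in Myc_KO and double_KO. It was at 8.13 and 13.6 RPM in Myc_KO, 5.81 and 5.95 RPM in Max_KO, 9.96 and 9.59 RPM in double_KO, and 4.64 and 5.06 RPM in the controls. The Max_KO libraries lay close to the controls and the 4 Myc-deficient libraries lay well above them. Its changes were 1.12, 0.28 and 1.01 (SE 0.253; adjusted p = 0.00933, 0.412 and 0.0139). Max_KO minus the 4 Myc-deficient libraries was -0.79 (95% interval -1.29 to -0.28), which did not pass adjustment (adjusted p = 0.255). The plasma cell markers, summed, were lower in all 6 knock-out libraries, and the T cell markers, summed, were higher. The T cell sums were 126 and 157 RPM in Myc_KO, 77.5 and 96 RPM in Max_KO, 82.6 and 124 RPM in double_KO, and 37.8 and 43.6 RPM in the controls. The part of either marker set in the level of Hnrnpll was not tested. Hnrnpul1 and Hnrnpul2, relatives of the scaffold protein Hnrnpu, were called higher in all 3 comparisons, at 0.39, 0.50 and 0.57 and at 0.57, 0.48 and 0.33. Hnrnpu itself was not called, nor were the other abundant members Hnrnpk, Hnrnpm, Hnrnpl, Hnrnpc and Hnrnpab. Once the length trend was removed Hnrnpu was called lower in each comparison, at -0.52, -0.48 and -0.67 (adjusted p = 0.00894, 0.0135 and 0.00353).

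The Rbm name covers unrelated proteins with an RNA recognition motif. Of the 32 tested genes 8, 7 and 9 were called higher, or 25, 21.9 and 28.1%, near the shares of all genes tested. Another 2, 1 and 4 were called lower, or 6.25, 3.12 and 12.5%, where 18.7, 16.6 and 18.9% of all genes were. The medians of the family were 0.14, 0.16 and 0.09. Rbm41, which in human cells binds the U12 RNA of the minor spliceosome, had the largest upward change of all members in Max_KO and double_KO. It was at 12.7 and 13.8 RPM in Myc_KO, 11.5 and 14.6 RPM in Max_KO, 18.1 and 16.5 RPM in double_KO, and 6.01 and 6.16 RPM in the controls. Its changes were 1.12, 1.09 and 1.51 (SE 0.172; adjusted p = 0.00174, 0.00227 and 0.00058), or 2.17-, 2.13- and 2.84-fold higher, and they were 1.16, 1.11 and 1.53 with the length trend removed.

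Rbm26 and Rbm27, paralogues that take part in nuclear RNA decay in human cells, were both higher. Rbm26 was at 104 and 120 RPM in Myc_KO, 93.4 and 106 RPM in Max_KO, 118 RPM in both double_KO libraries, and 62.6 and 65.7 RPM in the controls. It changed by 0.80, 0.63 and 0.87 (SE 0.104; adjusted p = 0.000892, 0.0027 and 0.000661), and Rbm27 changed by 0.62, 0.45 and 0.57 (SE 0.0974; adjusted p = 0.00189, 0.00845 and 0.00286). Rbm33, Rbm12 and Rbm43 were also called higher in all 3 comparisons, with changes between 0.34 and 0.60. Rbm33 was at -0.16, 0.05 and -0.01 with the length trend removed, and none of these was called. Rbm27 was then at 0.30, 0.15 and 0.19, called in Myc_KO alone. Rbm12 was at 0.04 in Myc_KO and 0.12 in Max_KO, not called. Rbm26 and Rbm43 stayed called in all 3 comparisons.

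Among the Rbm genes that fell, Rbm17, a U2-related protein that takes part in 3′ splice site choice, was at 132 and 127 RPM in Myc_KO, 130 and 122 RPM in Max_KO, 129 and 118 RPM in double_KO, and 170 and 158 RPM in the controls. Its changes were -0.34, -0.38 and -0.41 (SE 0.0891; adjusted p = 0.0175, 0.0114 and 0.00786). With the length trend removed they were -0.08, -0.18 and -0.22, and none was called. Rbm38 was called in Myc_KO and double_KO, at -0.27 and -0.56 (adjusted p = 0.0472 and 0.00244), the call in Myc_KO being lost in 6 of the 8 fits without 1 library. Rbm5 and Rbm10, related regulators of exon use, were called in double_KO, at -0.40 and -0.59 (adjusted p = 0.0206 and 0.0156). Rbm39, Rbm25, Rbm7, Rbm42 and Rbm45 were among the Rbm genes that were not called in any of the 3 comparisons.

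Per gene, the 6 knock-out libraries lay wholly below both controls for 34 members and wholly above them for 27, where 26.5% and 29.1% of all genes tested did so. The 10 with the lowest and the 10 with the highest mean change are drawn in the heatmap by library. The direction in the 2 libraries in dispute is fixed by this choice.

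**Figure D5:**
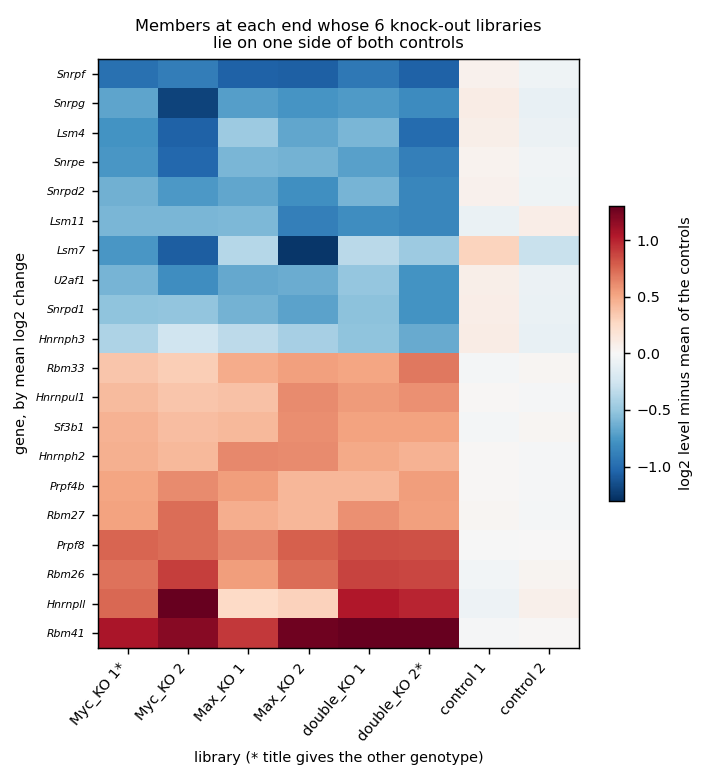
Log2 level minus the mean of the 2 controls (colour) for the 10 members with the lowest and the 10 with the highest mean change among those whose 6 knock-out libraries all lie on one side of both controls (rows, ordered by mean change), in each library (columns). Asterisks mark the 2 libraries whose titles give the other genotype; Snrpf, Snrpg and Lsm4 stand at the low end and Rbm26, Hnrnpll and Rbm41 at the high end.

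The knock-out groups were also compared with each other. Max_KO was first set against the 4 Myc-deficient libraries. By either set of labels 2 of these 4 lack Max as well, so their mean cannot show loss of Myc alone. Between Max_KO and the 4 Myc-deficient libraries limma called 0 of 111 members, where 0.296% of all genes were called (0.272% lower and 0.024% higher), and 6 members had an unadjusted p under 0.05, as did 11.0% of all genes. For Snrpf the difference was -0.09 (95% interval -0.27 to 0.09), for Snrpe 0.24 (0.01 to 0.47) and for U2af1 0.02 (-0.22 to 0.25). It was -0.08 for Prpf8 (-0.26 to 0.09) and -0.22 for Rbm41 (-0.56 to 0.12). With the spread taken within the title groups limma called 0 members and 1.09% of all genes.

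Between the libraries labelled double_KO and those labelled Myc_KO limma called 0 of 111 members and 0.0% of all genes, and 16 members had an unadjusted p under 0.05, as did 10.5% of all genes. The difference was -0.05 for Snrpf (95% interval -0.26 to 0.16), 0.17 for Snrpg (-0.20 to 0.54), 0.10 for Prpf8 (-0.11 to 0.30) and 0.39 for Rbm41 (-0.01 to 0.78). With the groups taken from the titles 0 members were called as well. All double_KO libraries have title numbers in the 40s, and all Myc_KO and control libraries have numbers in the 30s. Under the description labels the Max_KO pair, with 1 library of each series, is thus what separates the number series from the double deficiency. A fit that also held a term for the series called 1 member lower and 0 higher in double_KO against the controls, where 2.67% of all genes were called. The same fit called the series itself for 0 genes.

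Whether the changes of the single deficiencies add up was asked by the interaction. This is the change in double_KO minus the sum of the changes in Myc_KO and Max_KO. Under the description labels it cannot show how each deficiency acts with the other present, since Max differed within Myc_KO and within double_KO. It was called for 16 members, or 14.4%, against 20.8% of all genes tested (12.0% lower and 8.83% higher). It was positive for the 5 members Snrpf, Snrpg, Snrpd2, Snrpe and U2af1, all lower in each knock-out group, and negative for 11. For Snrpf it was 1.0 (SE 0.13; adjusted p = 0.00425), where Myc_KO, Max_KO and double_KO each changed by about the same amount. For Prpf8 it was -0.61 (SE 0.125; adjusted p = 0.0143). Leaving out the first or the second control library left 2 or 3 members called, and 6.68 or 8.96% of all genes.

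Splicing genes were also counted in 7 further lists. All but the last hold genes outside the named families. Over all genes tested 18.7, 16.6 and 18.9% were called lower and 22.3, 21.4 and 23.3% higher in Myc_KO, Max_KO and double_KO. The counts of each list stand beside these shares, and no list was tested as a set. Of 33 other U snRNP proteins 7 were called lower and 3 higher in each comparison. Snrnp70, the U1 70K protein, was at 243 and 225 RPM in Myc_KO, 244 and 241 RPM in Max_KO, 240 and 233 RPM in double_KO, and 344 and 330 RPM in the controls, and changed by -0.53, -0.47 and -0.51 (adjusted p = 0.00177, 0.00321 and 0.00207). Snrnp200, the U5 helicase that works beside Prpf8, was at 390 and 351 RPM in Myc_KO, 344 and 423 RPM in Max_KO, 415 and 414 RPM in double_KO, and 218 and 217 RPM in the controls. Its changes were 0.77, 0.81 and 0.93 (SE 0.112; adjusted p = 0.00143, 0.0014 and 0.000692).

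Of 17 genes for assembly of the Sm ring and maturation of snRNPs, 1 was called lower and 1 higher in each comparison. Phax, an export adaptor for U RNAs, changed by -0.37, -0.67 and -0.51 (adjusted p = 0.0432, 0.0041 and 0.0113), and Tgs1, which modifies their cap, by 0.50, 0.62 and 0.58 (adjusted p = 0.00378, 0.00181 and 0.00205). The median changes of the list were -0.09, -0.13 and -0.08. Of 24 factors of the complex around Prpf19 and the catalytic steps 4 were lower and 8 higher in each comparison. The intron-binding helicase Aqr was among them, at 0.63, 0.46 and 0.56 (adjusted p = 0.000752, 0.00322 and 0.00122), as was Mfap1b, at 0.80, 0.71 and 0.61 (adjusted p = 0.000914, 0.00174 and 0.0028). In the exon junction complex 2, 0 and 1 of 8 genes were lower and 1, 1 and 0 higher. Rnps1 changed by -0.39, -0.25 and -0.28 and was called in Myc_KO and double_KO, and Casc3 by 0.29, 0.30 and 0.15 and was called in Myc_KO and Max_KO.

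Of 17 SR protein kinases and SR-related proteins 4, 3 and 5 were lower and 7, 7 and 6 higher. Clk3, a kinase of SR proteins, was at 52.8 and 55.0 RPM in Myc_KO, 63.1 and 54.7 RPM in Max_KO, 53.7 and 57.0 RPM in double_KO, and 134 and 128 RPM in the controls. This was a change of -1.29, -1.16 and -1.25 (SE 0.101; adjusted p = 0.000289, 0.00038 and 0.000291). Son, a large speckle protein, changed by 0.80, 0.79 and 0.97 (adjusted p = 0.000991, 0.00126 and 0.000528). Of 24 tested other regulators 1, 1 and 3 were lower and 7, 10 and 8 higher. Mbnl1, which promotes differentiated splicing patterns, was at 539 and 534 RPM in Myc_KO, 579 and 581 RPM in Max_KO, 500 and 547 RPM in double_KO, and 218 and 220 RPM in the controls. It changed by 1.29, 1.40 and 1.26 (SE 0.0833; adjusted p = 0.000237, 0.000278 and 0.000291), and the regulator Celf2 by 1.04, 1.11 and 1.17 (adjusted p = 0.000513, 0.000531 and 0.000396).

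The last list holds 11 splicing genes linked to Myc in other cell types, among them the members Snrpb, Snrpd1, Snrpd3, Srsf1, Hnrnpa1 and Hnrnpa2b1. In it 2, 1 and 3 were called lower and 0, 1 and 1 higher. The genes called lower were Sm ring subunits, Snrpd1 in all 3 comparisons, Snrpd3 in Myc_KO and double_KO and Snrpb in double_KO. Ptbp1, a repressor of exons, was called higher, at 595 and 519 RPM in Myc_KO, 604 and 615 RPM in Max_KO, 631 and 573 RPM in double_KO, and 497 and 462 RPM in the controls. Its changes were 0.21, 0.35 and 0.33 (SE 0.102; adjusted p = 0.128, 0.0293 and 0.0337). The Sm methyltransferase Prmt5 and its partners Wdr77 and Clns1a, and the assembly factor Gemin5, were not called. Prmt5 was at 74.9 and 67.2 RPM in Myc_KO, 68.5 and 66.3 RPM in Max_KO, 79.8 and 70.4 RPM in double_KO, and 81.0 and 73.3 RPM in the controls.

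Promoter windows of 300 bases were searched on both strands for CACGTG, the E-box, and for CACGCG, a variant of it, so that no site can match both motifs in full. RefSeq had a promoter for 93 tested members. CACGTG was found in 12 of them, or 12.9%, against 12.1% of all tested genes with a promoter and 8.09% of all genes of the RefSeq table. CACGCG was found in 26, or 28.0%, against 20.4% and 10.5%. Among members wholly below the controls 27 had a promoter, of which 2 held CACGTG and 10 CACGCG. Among those wholly above 21 had one, of which 4 held CACGTG and 3 CACGCG. In the printed promoters the first base of the match lies at -14 from the start of Snrpd3, -73 and -32 from that of Snrpa, -193 from that of U2af1 and 15 from that of Hnrnph2. A match is a run of letters and does not show that Myc or Max binds there.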

How the data were processed

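The values were deposited by the authors as log2 values in 1 table of 15681 genes and 8 libraries, with a range of -5.23 to 14.51. The values themselves show log2 of RSEM's reads plus 0.5, scaled to an effective library size (RPM); every value was a multiple of 0.01 read within 0.0002 read. RPM is 2 to the power of the deposited value. The tools, per the submitters' processing notes, were CASAVA 1.8, cutadapt and, on GRCm38, RSEM 1.2.3. Their order, the annotation and the strand setting are not given in the sources at hand. Reads are estimated, so that only 70.5% were whole and no count test was run. The design had been written for values like these, and the log2 values were used as deposited.

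Groups came from the description field. Symbols, coordinates and transcript lengths (mean over the principal transcripts of a gene) were taken from GENCODE vM21 (GRCm38); 15622 genes had a symbol and 59 had none. Genes that reached 1 RPM in at least 2 libraries entered a limma-trend fit (limma 3.58.1, R 4.3.3), all 8 libraries in 1 model of 4 groups, with residual degrees of freedom of 4 and a prior of 4.2. All tests are two-sided, with Benjamini-Hochberg adjustment over 12489 genes and a threshold of 0.05. The script was tested on simulated data. Tables and figures were made with matplotlib 3.10.9, pandas 2.3.3, scipy 1.17.1 and numpy 2.4.6 in Python 3.11.15.

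The members, lists and tests were chosen with earlier results of these data known. Named genes are the Sm ring, the Myc-linked list, up to 2 genes per family and direction with the lowest adjusted p among those called in at least 2 comparisons, the 5 highest and 5 lowest mean changes, up to 3 per comparison between knock-outs, and up to 2 per further list. Other members were named after their values were seen, to account for each family; 1 called member is counted but not reported here by name. The comparison of the 4 Myc-deficient libraries with the controls, the removal of the length trend, the subset of libraries numbered in the 30s, and title groups with the number series were added after the data were seen. Alternatives were other filters and scalings, a pseudocount, title groups, the 6 undisputed libraries, a replicate block, the number series as a term, the groups compared only, and each library left out.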

Additional observations from a re-analysis of the deposited data

Results flagged for a closer look

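The interaction in limma, on the log2 scale, is the change in double_KO minus the sum of the changes in Myc_KO and Max_KO. With groups from the titles it passed the threshold for 22 members (10 negative, 12 positive) and 27.3% of all genes. With the description labels, used here, it passed for 16 members, or 14.4%, and for 20.8% of all genes. All 4 groups, with the shared controls, enter it. The interaction cannot show how each deficiency acts with the other present, since Max differed within Myc_KO and within double_KO. It was positive for Snrpf (1.0), Snrpg (0.91), U2af1 (0.72), Snrpd2 (0.70) and Snrpe (0.69), which were lower in each knock-out group. It was negative for Hnrnpul2 (-0.72), Prpf8 (-0.61), Hnrnph2 (-0.59), Prpf4b (-0.56), Rbm26 (-0.56), Lsm14a (-0.53), Rbm27 (-0.51), Sf3b2 (-0.45) and Hnrnpr (-0.42), which were called higher in at least 2 of the comparisons with the controls. It was also negative for Rbm14 (-0.61) and Rbm6 (-0.56), which were called higher in Myc_KO alone, with changes of 0.38 and 0.36.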

How the results depend on the processing

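Members called lower in Myc_KO numbered 21, and 10 under same-total scaling and 11 with the length trend removed; the 21 called higher were 13 over the 6 undisputed libraries. In Max_KO the 12 lower became 25 under quantile normalization, 20 with the replicate block, 7 with the number series as a term, 5 over the libraries numbered in the 30s and 19 with title groups and the series term; the 20 higher became 32 under same-total scaling and 12 over the 30s. In double_KO the 22 lower became 13 over the undisputed libraries, 13 under same-total scaling and 1 with the series term, and the 22 higher became 0 with the series term. For the 4 Myc-deficient libraries the 25 lower became 15 under same-total scaling and 13 with the series term. The share of all genes tested called lower moved as well. With same-total scaling it was 14.1% in Myc_KO, 13.9% in double_KO and 16.3% in the 4 Myc-deficient libraries. With the series term it was 9.55% in Max_KO, 0.993% in double_KO and 12.3% in the 4 Myc-deficient libraries. In Myc_KO it was 15.0% with the length trend removed. In Max_KO it was 18.3% with quantile normalization, 19.3% with the replicate block and 20.7% with title groups and the series term. Of all genes 27.2% were called higher in Max_KO with same-total scaling and 1.67% in double_KO with the series term. Over the libraries numbered in the 30s 9.9% of all genes were lower and 13.4% higher in Max_KO. Over the undisputed libraries 19.0% were higher in Myc_KO and 12.0% lower in double_KO. The 16 called in the interaction became 33 with title groups and the series term and 8 with the length trend removed. The share of all genes called in the interaction went from 20.8% to 37.1 and 15.6% in those settings. Max_KO against the 4 Myc-deficient libraries gave 1 with title groups and the series term and 0 in every other setting; double_KO against Myc_KO gave 0 in every setting.

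Leaving out 1 library gave 6 to 18 lower and 10 to 21 higher in Myc_KO, 6 to 14 lower and 10 to 20 higher in Max_KO, 10 to 25 lower and 12 to 23 higher in double_KO, 10 to 27 lower and 13 to 25 higher in the 4 Myc-deficient libraries, and 2 to 13 in the interaction. A group with 1 library left is assumed to vary like the others. In the fits named next the matching shares of all genes called fell as well. Low counts came without control replicate 1 or 2, without Myc_KO replicate 2 (9 lower in Myc_KO), without Max_KO replicate 2 (7 lower in Max_KO), and without double_KO replicate 1 (12 higher in double_KO) or 2 (12 lower).

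Replicate numbers were not taken to pair the libraries, since the labels give them no shared source and a group has only 2; deviations of 2 groups correlated at -0.11 (Max_KO with control) to 0.26 (double_KO with Myc_KO). With the replicate block 23 members were lower and 23 higher in Myc_KO, 20 and 23 in Max_KO, 27 and 25 in double_KO, and 22 were called in the interaction. Of all genes 21.1, 19.3 and 21.5% were lower and 24.6, 24.1 and 25.3% higher with the block. In the interaction 27.6% of all genes were called. With the numbers crossed in Max_KO 14 members were lower and 19 higher, where 18.1 and 20.9% of all genes were.

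Among genes named by rule, 4 changes that were called in either fit turned sign, which were Hnrnpa2b1 in double_KO under quantile normalization (0.53) and, with the length trend removed, Prpf4b in double_KO (-0.02), Sf3b6 in Myc_KO (0.01) and Snrpb in the 4 Myc-deficient libraries (0.02). Of their other values 3710 kept direction and call, 71 turned sign with no call in either fit, 349 lost the call and 42 gained it. Over all members tested 20 values with such a call turned sign, 14 of them with the length trend removed. The causes were not tested. No value exists for the interaction from the groups compared alone, nor for double_KO over the 30s. Depth limits low members such as Rbm47, and 2 libraries a group limit all tests.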

Other observations

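The titles number the libraries in the 30s or the 40s, which the labels do not describe as batches. With groups taken from the titles, each knock-out group has 1 library of each series, and the number series as a term was called for 6.84% of all genes tested and for 12 members, 3 higher and 9 lower in the 40s. Rbm3, a protein induced by cold, was at 868 RPM in Max_KO replicate 2, 837 RPM in double_KO replicate 1 and 771 RPM in double_KO replicate 2, the 3 libraries of the 40s. It was at 530 RPM in Max_KO replicate 1, 587 and 499 RPM in Myc_KO and 516 and 506 RPM in the controls, all of the 30s. The difference between series was 0.62 (SE 0.0602; adjusted p = 0.00579). Hnrnpdl was 0.50 higher and Srsf5 0.36 higher in the 40s (adjusted p = 0.0088 and 0.0151).

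Among the members lower in the 40s were Rbm12b1 (-0.87; adjusted p = 0.00774), its neighbour Rbm12b2 (-0.72; adjusted p = 0.0113), Rbm10 (-0.43; adjusted p = 0.00924) and Rbm5 (-0.29; adjusted p = 0.0216). Rbm12b1 was at 10.5, 13.0 and 11.9 RPM in the 3 libraries of the 40s and at 18.3 to 22.1 RPM in the others. With groups from the descriptions the same term was called for 0 members and 0 of all genes. Of the 12 members, Rbm3, Srsf5, Rbm10, Rbm5, Rbm38 and Hnrnpul2 were called in double_KO under the description labels. With the series as a term in that fit their changes in double_KO were -0.06 for Rbm3, 0.03 for Srsf5, -0.07 for Rbm10, -0.13 for Rbm5, -0.37 for Rbm38 and 0.52 for Hnrnpul2, and none was called (adjusted p = 0.0941 to 0.938).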
